A study of Mus musculus with 3 samples.

Results

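The S100 genes encode small calcium-binding proteins that work mostly as dimers, and 8 of them were followed here: S100a1, S100a4, S100a6, S100a8, S100a9, S100a10, S100a11 and S100a13. They were taken by gene symbol from a list fixed with earlier results of these data known. All 8 were found among the 55536 Ensembl genes of the deposited tables. The data come from 3 libraries of cytosolic RNA, depleted of ribosomal RNA, from bone marrow-derived macrophages of C57BL/6J mice. Each culture met Lipid A, the membrane anchor of bacterial endotoxin and the ligand of Toll-like receptor 4, in a first exposure of 12 h at 100 ng/ml. After a wash and 12 h of rest it met the same dose again for 50 min. The labels give this single condition with 3 biological replicates and 1 strain-level donor entry, the age and sex of the mice were not collected, and no unstimulated library was analysed here, so no level can be called induced or repressed.

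Each S100 protein carries a pair of EF hands, helix-loop-helix folds whose loop holds a calcium ion. Binding of calcium in the C-terminal loop opens a surface for target proteins, among them annexins, myosin and other cytoskeletal proteins. S100A8 and S100A9 form calprotectin, an abundant cytosolic protein of neutrophils and monocytes that is released as an alarm signal and is reported to act on Toll-like receptor 4 and RAGE. S100A10 differs from its relatives in that it does not need calcium and stays bound to annexin A2.

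The coding sequences of the calcium loop were compared among the members. The 12-codon calcium loop was searched in frame as the 36-base motif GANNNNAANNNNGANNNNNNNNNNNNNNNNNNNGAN, in which codons 1, 5 and 12 begin with GA and codon 3 with AA. Exactly 1 full match was found in 7 of the 8 members. In all, 2231 of 21817 protein-coding genes (10.2%) held the motif, and 96 of 1819 (5.28%) with a coding sequence as long as the members' (267 to 480 bases). For S100a10, which had none, the in-frame stretch of its last coding exon that is nearest to the other 7 loops is shown. The sequences are from the GENCODE M21 transcript that held most of each gene's TPM, written 5′ to 3′, and capitals mark the 8 positions that the motif fixes.
S100a1: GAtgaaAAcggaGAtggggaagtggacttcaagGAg
S100a4: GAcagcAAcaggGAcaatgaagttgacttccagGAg
S100a6: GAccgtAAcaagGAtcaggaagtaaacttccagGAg
S100a8: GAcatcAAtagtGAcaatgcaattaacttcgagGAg
S100a9: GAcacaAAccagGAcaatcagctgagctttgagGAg
S100a11: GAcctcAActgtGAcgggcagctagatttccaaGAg
S100a13: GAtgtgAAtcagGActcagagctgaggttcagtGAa
S100a10: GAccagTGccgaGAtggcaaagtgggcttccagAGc
In S100a10 4 of the 8 fixed letters were present (mm10 chr3:93564288-93564323, plus strand, exon 3): codons 1 and 5 begin with GA, while codons 3 and 12 begin with TG and AG. This stretch was chosen for its likeness to the other loops, and 7 other in-frame windows of S100a10 match more of the fixed letters, up to 6 of 8. Lacking the motif is not particular to S100a10: among the 9 other S100 genes, S100a2, S100a14 and S100b had no full match either. The corresponding loop of S100a11 (chr3:93526037-93526072, plus strand, exon 3) holds all 8. A match is a description of letters and was not tested as a binding site.

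All 8 genes lie on chromosome 3 in mm10. S100a1 (90511034 to 90514392, minus strand) and S100a13 (90514435 to 90524581, plus strand) are head to head with 42 bases between them. S100a4 (90603771 to 90606045), S100a6 (90612882 to 90624181) and S100a8 (90668978 to 90670035) follow on the plus strand, and S100a9 (90692632 to 90695721) faces S100a8 on the minus strand, 22596 bases away. S100a11 (93520488 to 93526287) and S100a10 (93555080 to 93564643) form a separate pair on the plus strand, 28792 bases apart. Gm42674 on the same strand overlaps S100a4 and had 0 counts in every library, and the pseudogene S100a11-ps had 0 as well.

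RefSeq promoters on GRCm38.p6, each 250 bases before to 50 after the annotated start, were found for 7 members. The letters TATAAA, searched on both strands, were in the windows of S100a4, S100a8 and S100a9 and in 13.6% of all 32851 promoters. The letters GGGCGG, searched on both strands too, were in those of S100a9 and S100a11 and in 35.7% of all promoters. The 4 windows that hold either motif are printed because they include the 2 lowest members by mRNA level and the highest, with the matched letters in capitals.
S100a4: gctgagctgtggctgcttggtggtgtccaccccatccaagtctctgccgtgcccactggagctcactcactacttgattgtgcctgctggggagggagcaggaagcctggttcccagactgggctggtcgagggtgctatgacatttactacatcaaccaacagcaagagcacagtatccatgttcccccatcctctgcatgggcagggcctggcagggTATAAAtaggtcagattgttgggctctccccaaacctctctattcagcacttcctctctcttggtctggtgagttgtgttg
S100a8: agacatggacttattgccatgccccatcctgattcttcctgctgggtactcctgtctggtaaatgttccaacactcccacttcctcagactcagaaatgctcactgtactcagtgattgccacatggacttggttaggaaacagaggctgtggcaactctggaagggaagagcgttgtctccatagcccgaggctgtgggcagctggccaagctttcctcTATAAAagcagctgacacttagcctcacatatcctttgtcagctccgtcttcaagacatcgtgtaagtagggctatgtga
S100a9: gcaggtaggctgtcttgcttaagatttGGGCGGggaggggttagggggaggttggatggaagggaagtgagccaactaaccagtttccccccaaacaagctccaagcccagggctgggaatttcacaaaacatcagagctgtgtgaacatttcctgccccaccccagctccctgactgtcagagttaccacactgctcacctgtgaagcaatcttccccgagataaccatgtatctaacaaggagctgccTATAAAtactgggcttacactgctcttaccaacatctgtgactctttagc
S100a11: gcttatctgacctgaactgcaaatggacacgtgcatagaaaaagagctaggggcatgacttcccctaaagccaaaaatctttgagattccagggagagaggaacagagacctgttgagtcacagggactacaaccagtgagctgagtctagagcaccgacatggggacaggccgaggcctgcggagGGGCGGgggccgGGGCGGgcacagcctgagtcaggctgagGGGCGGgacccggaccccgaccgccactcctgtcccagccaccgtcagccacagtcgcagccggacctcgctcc
TATAAA began 31 bases before the start in S100a4 (chr3:90603520-90603819, plus strand) and 30 before in S100a8 (chr3:90668821-90669120, plus strand), but at the annotated start itself in S100a9 (chr3:90695672-90695971, minus strand). GGGCGG stood 3 times in S100a11 (chr3:93520246-93520545, plus strand), first 64 bases before the start, and 1 time in S100a9, 223 bases before it. The windows of S100a11 and S100a13 held 15 and 14 CpG dinucleotides, that of S100a1 held 11 and those of S100a4 and S100a9 held 2 each, against a median of 7 over all promoters. The S100a1 and S100a13 windows share 204 bases because those genes are divergent.

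Depth was 47972048, 54409437 and 53491936 expected counts in replicates 1, 2 and 3. TPM is a share of transcripts corrected for length, so it allows levels of different genes to be compared. Protein-coding genes held 33.3, 26.1 and 37.0% of TPM, and other indexed features held the rest. In unscaled TPM 80.0% of all tested genes were lowest in replicate 2. Comparisons between libraries therefore use CPM, counts scaled to a common TMM library size. Macrophage identity was well marked: 14 of 15 macrophage markers reached a TPM of 1 in every library, with a summed TPM of 8677, 7703 and 10168, led by Lyz2, C1qb and Mpeg1, while Cx3cr1 was the lowest at 0.113 ± 0.0252 (SD, n = 3). None of 8 fibroblast markers (Thy1, the highest, at 0.0667) and none of 8 lymphocyte markers (Nkg7, the highest, at 0.03) reached that level, and Ccr7 alone did among 8 dendritic cell markers (1.12 ± 0.115).

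All 8 members were expressed, here a TPM of at least 1 in every library, a level that 41.1% of 22028 protein-coding genes reached. The members were chosen with earlier results of these data known, so 8 of 8 is no independent result about the family. Their mean levels spanned from 67.5 TPM for S100a11 to 3.80 for S100a8. S100a10 and S100a11, the annexin partners, together made up 51.6% ± 2.06 of the members' summed TPM, and with S100a1 and S100a6 the share was 81.5% ± 2.80 (SD, n = 3). S100a8 and S100a9 held 3.31, 6.39 and 2.52% in replicates 1, 2 and 3. The summed TPM of all members was 291.57, 161.92 and 302.94, which is 0.0876, 0.0621 and 0.0819% of the TPM of protein-coding genes.

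**Figure D1:**
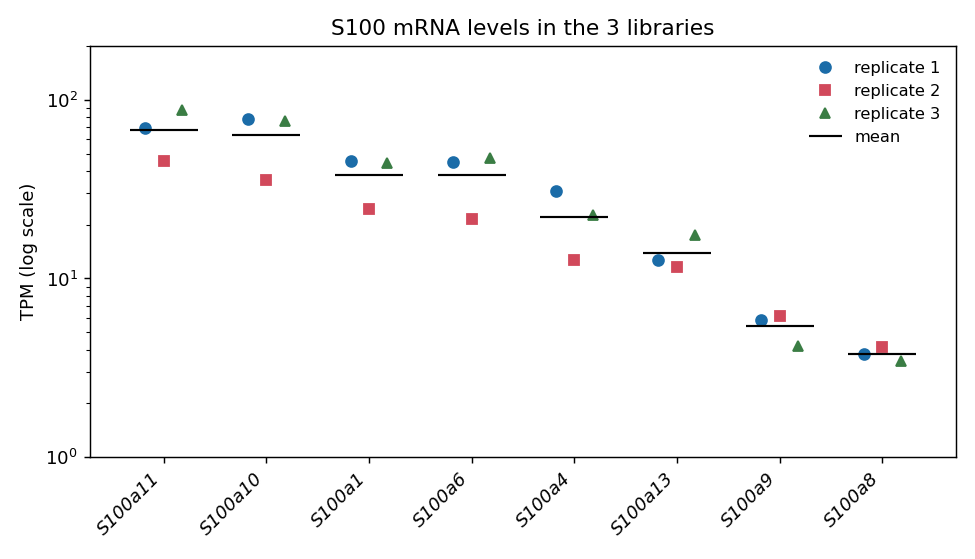
TPM of the 8 S100 genes on a log axis, ordered by mean; points are single libraries and bars the mean of the 3. S100a11 and S100a10 lead, S100a9 and S100a8 are under 7 TPM in every library, and 6 of the 8 genes are lowest in replicate 2 on this unscaled measure.

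S100a11 pairs with annexin A1 in membrane repair and vesicle traffic. It stood at 69.33, 45.41 and 87.9 TPM in replicates 1, 2 and 3 (mean 67.5 ± 21.3, SD, n = 3), above 91.6, 90.2 and 92.4% of expressed protein-coding genes. S100a10, the partner of annexin A2, stood at 78.53, 35.76 and 75.56 TPM (63.3 ± 23.9). S100a10 was the higher of the pair in replicate 1 and S100a11 in replicates 2 and 3, so their order is not settled by these libraries: the difference of S100a11 minus S100a10 was 0.12 ± 0.27 log2(TPM + 1).

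S100a6, or calcyclin, binds the ubiquitin ligase adaptor CacyBP and annexin A11. Its level was 45.02, 21.48 and 47.23 TPM (37.9 ± 14.3). S100a1, best known from muscle, where it acts on calcium handling, had 45.45, 24.59 and 44.31 TPM (38.1 ± 11.7). Their order changed between libraries, with a difference of S100a1 minus S100a6 of 0.04 ± 0.14 log2(TPM + 1), which was -0.038 without replicate 2. In counts, S100a1 had 1471, 1146 and 1472, so its level rests on more reads than that of S100a6 at 1089, 772 and 1271. Nearly all S100a1 TPM (98.0% ± 0.225) was on the protein-coding transcript S100a1-201.

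S100a4 binds non-muscle myosin IIA and is linked to cell movement. It stood at 30.99, 12.72 and 22.76 TPM (22.2 ± 9.15), highest in replicate 1. S100a13, which takes part in the release of interleukin-1 alpha and fibroblast growth factor 1 by a route that bypasses the usual secretory pathway, stood at 12.61, 11.62 and 17.55 TPM (13.9 ± 3.18). S100a4 was above S100a13 in 3 of 3 libraries but by quite different amounts, 1.23, 0.12 and 0.36 log2(TPM + 1). The divergent neighbours S100a1 and S100a13 were far from equal, with a TPM ratio of 3.60, 2.12 and 2.52.

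The calprotectin genes were the lowest members. S100a9 stood at 5.85, 6.18 and 4.19 TPM (5.41 ± 1.07), and S100a8 at 3.79, 4.16 and 3.44 (3.80 ± 0.360). These levels exceeded 33.8, 44.8 and 22.9% of expressed protein-coding genes for S100a9 and 20.8, 31.9 and 17.8% for S100a8. Unscaled TPM understates the spread of both between libraries, which in CPM was 2.55 ± 0.822 for S100a9 and 1.63 ± 0.416 for S100a8. The subunits join in equal numbers in calprotectin, and the ratio of S100a9 to S100a8 TPM was 1.54, 1.49 and 1.22 (1.42 ± 0.174), above 1 in 3 of 3 libraries (exact two-sided sign-flip permutation p = 0.25 on log2 ratios, the smallest that 3 libraries allow).

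Of the 7 differences between neighbours in the order of mean TPM, 5 had the same sign in 3 of 3 libraries. The order was taken from these same libraries, so agreement in sign is not independent support for it. These were S100a10 over S100a1 (0.69 ± 0.14 log2(TPM + 1)), S100a6 over S100a4 (0.75 ± 0.25), S100a4 over S100a13 (0.57 ± 0.59), S100a13 over S100a9 (1.21 ± 0.55) and S100a9 over S100a8 (0.41 ± 0.16). Each had an exact sign-flip permutation p of 0.25, or 0.35 after Benjamini-Hochberg adjustment over the 7, so none could pass 0.05. For S100a4 over S100a13 the spread between libraries was as large as the difference. The other two pairs, S100a11 with S100a10 and S100a1 with S100a6, changed order between libraries.

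The rest of the family was almost silent, a division that the choice of members, made with earlier results known, may have set. Of 10 other S100 genes listed, 9 were in the tables and none reached a TPM of 1. S100a2, S100a5, S100a14, S100g and S100z had 0 counts in every library, which allows up to 0.0625, 0.0551 and 0.0561 CPM in replicates 1, 2 and 3 (the CPM of 3 counts, counting error alone considered). S100b, the glial member, had 2, 2 and 5 counts, and S100a7a had 0, 3 and 2. S100a3 had 1 count, in replicate 1, and S100a16 had 1, in replicate 2. The 9 genes together had 3, 6 and 7 counts, against 7838, 6234 and 8492 for the 8 members.

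Reads fell on protein-coding transcripts. S100a11-201 and S100a13-201 are the single annotated transcripts of their genes, and S100a10-201 held 99.7% ± 0.212 of its gene's TPM. S100a6 was divided between S100a6-203, with 64.1, 60.4 and 55.1%, and S100a6-201, with 35.9, 39.5 and 44.9%. The second transcript table gave S100a6-203 58.8, 51.7 and 46.1%, so which of these led in replicate 3 depends on the table. S100a9-201 held 82.1, 89.8 and 87.9% of S100a9. The retained-intron transcript S100a8-202 held 7.92% of S100a8 in replicate 1, from 5.87 estimated counts, and 0 in the other libraries.

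The libraries differed in S100 levels by more than counting error. In a Poisson heterogeneity chi-square test against TMM library sizes, 8 of 8 members passed at a Benjamini-Hochberg adjusted p of 0.05, against 70.4% of the 13827 genes tested and 67% of 288 protein-coding genes of similar effective length. This share is high for all genes, so passing is no property of the members. The adjusted p ran from 2.8e-64 for S100a10 to 0.0063 for S100a8. Without replicate 2, 4 of 8 passed, against 53.1% of genes: S100a1 (adjusted p = 0.871), S100a8 (0.821), S100a10 (0.541) and S100a9 (0.0626) no longer did.

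For S100a10 the CPM was 50.9, 31.5 and 50.6 in replicates 1, 2 and 3. Replicates 1 and 3 were close and replicate 2 was lower, at 0.620 of the mean of the other two. S100a6 stood at 21.4, 14.3 and 25.1 CPM and S100a4 at 12.0, 6.73 and 9.40, both lowest in replicate 2, at 0.614 and 0.629 of the mean of the others. S100a1 had 28.9, 21.2 and 29.1 CPM and S100a11 had 28.2, 25.1 and 37.9. Replicate 2 was thus lowest in 5 of 8 members, against 29.2% of all tested genes and 28.5% of those of similar length. S100a11 was set apart within the 5 by its high replicate 3, with replicates 1 and 2 close together.

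In S100a8 and S100a9 replicate 2 took the opposite place. S100a9 had 2.39, 3.44 and 1.82 CPM, from 122, 186 and 92 counts, and S100a8 had 1.41, 2.11 and 1.36, from 72, 114 and 69 counts. Both were highest in replicate 2, at 1.63 and 1.52 times the mean of the others, a place taken by 32.4% of all tested genes and 34.7% of those of similar length. Their lowest library was replicate 3, as for 32.6% of all tested genes. S100a13 followed neither pattern, with 8.71, 10.9 and 12.5 CPM and its lowest value in replicate 1, as for 38.2% of all tested genes. The same 5 members were lowest and the same 2 highest in replicate 2 with DESeq2 size factors, with TPM rescaled to protein-coding genes and in the second transcript table so rescaled. In unscaled TPM S100a13 joined the 5.

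**Figure D2:**
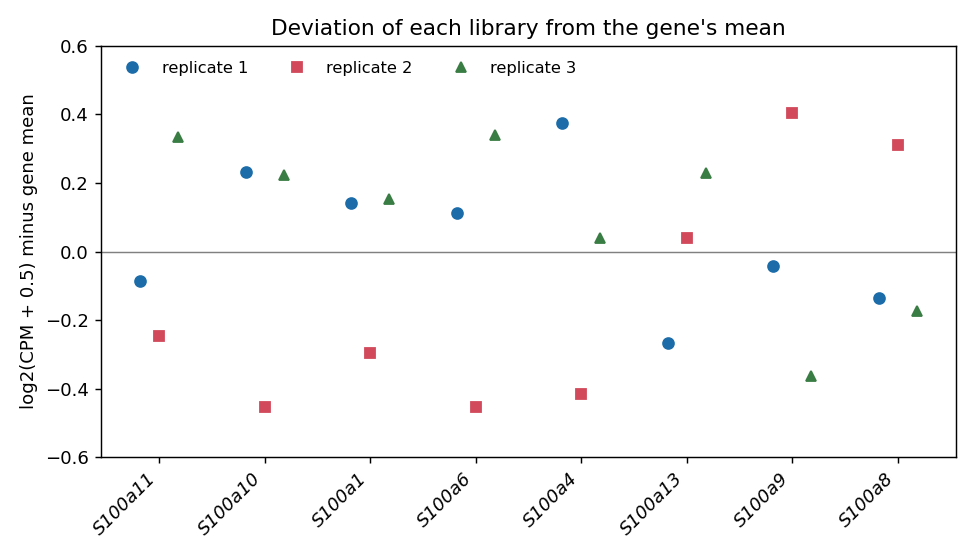
Deviation of each library from the gene's mean, in log2(CPM + 0.5), for the 8 S100 genes in order of mean TPM. Replicate 2 is lowest for S100a11, S100a10, S100a1, S100a6 and S100a4 and highest for S100a9 and S100a8.

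The estimated size of the spread differed between members, and was largest for those with the fewest counts, S100a8 and S100a9. The biological coefficient of variation, edgeR's estimate of spread beyond counting error, was 0.319 for S100a8 and 0.312 for S100a9, and ran from 0.156 (S100a1) to 0.225 (S100a4) for the others. The members' median was 0.201, against 0.166 for all tested genes. Without replicate 2 the medians were 0.171 and 0.177, and the value of S100a10 was 0.115 in place of 0.194. The values of S100a8, S100a9 and S100a13 went the other way, to 0.405, 0.363 and 0.201. For S100a8 this rise was no wider spread, as replicates 1 and 3 were close at 1.41 and 1.36 CPM (heterogeneity adjusted p = 0.821). Each value is moderated across genes by edgeR, so it is not a gene's own spread alone. Genes with few counts can hold high values without passing the heterogeneity test. Cx3cr1, with 92 counts in all, had 0.385 (adjusted p = 0.120), and Anxa9, with 427, had 0.234 (0.955). S100a8 and S100a9 had 255 and 400 counts, so their higher values cannot be read as a property of these genes alone. The highest library exceeded the lowest in CPM by 1.89-fold for S100a9, 1.78-fold for S100a4, 1.76-fold for S100a6, 1.62-fold for S100a10, 1.55-fold for S100a8, 1.51-fold for S100a11, 1.43-fold for S100a13 and 1.37-fold for S100a1, with a median over all tested genes of 1.27. The low counts of S100a8 and S100a9 limit how well their spread is known.

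By the Euclidean distance between their deviations over the 3 libraries, the closest members were S100a6 and S100a10 (0.167), S100a1 and S100a10 (0.195) and S100a8 and S100a9 (0.230), and the farthest were S100a6 and S100a9 (1.12). The genes nearest to S100a11, among 4459 genes averaging at least 10 TPM, were the kinase gene Mapkapk2 (0.0075), Metrnl (0.0104) and the guanylate-binding protein gene Gbp6 (0.0114). These distances rest on 3 libraries and are a description.

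Annexins bind membrane lipids in the presence of calcium and are the best known partners of S100 proteins. Of 12 annexin genes, 8 were expressed, against 41.1% of protein-coding genes, and 3 had 0 counts throughout. Anxa4 (159 ± 57.7 TPM, SD, n = 3), Anxa5 (146 ± 32.3) and Anxa2 (106 ± 19.2) were the highest. Anxa2 stood at 113.43, 83.92 and 120.07 TPM, above S100a10 in each library, with a ratio of 1.44, 2.35 and 1.59. The gap was widest in replicate 2, where S100a10 was low. Ahnak, the giant scaffold that binds the S100A10 and annexin A2 complex, had 77.84, 44.29 and 93.54 TPM, a ratio to S100a10 of 0.991, 1.24 and 1.24. Anxa1 exceeded S100a11 by 1.37, 1.38 and 1.04 times.

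In CPM, 7 of the 9 annexins tested were lowest in replicate 2, against 29.2% of all tested genes. Among the 7, Anxa2 and Anxa11 were nearly tied between replicates 1 and 2, at 194.0 and 193.8 CPM and at 51.5 and 51.3 CPM. The heterogeneity test called 8 of those 9, against 70.4% of all genes, and Anxa9, the lowest of them in TPM, was the one it did not (adjusted p = 0.955). Anxa6 was lowest in replicate 1.

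Intracellular targets of S100 proteins were nearly all present, with 17 of 18 expressed, against 41.1% of protein-coding genes. The list holds general cytoskeletal and oxidase genes, so the count is no result about S100 partners. Actb (3514 ± 230 TPM), the oxidase subunit Cyba (571 ± 109) and the myosin light chain Myl6 (319 ± 42.3) were the highest, and Dlc1 was the lowest at 0.0133 ± 0.00577. Myh9, the myosin IIA heavy chain, exceeded S100a4 by 2.05, 4.44 and 3.01 times in TPM. In CPM Myh9 was highest in replicate 2, where S100a4 was lowest. The S100a6 partners Anxa11, Cacybp and Sugt1 stood mostly below it, at ratios of 0.376, 0.583 and 0.440 for Anxa11, 0.577, 1.00 and 0.533 for Cacybp, and 0.512, 0.693 and 0.618 for Sugt1. All 17 partners tested passed the heterogeneity test, against the 70.4% of all genes.

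For S100a13, the export cargo Il1a was abundant at 263.54, 107.01 and 209.17 TPM (193 ± 79.5), 20.9, 9.21 and 11.9 times S100a13. Fgf1, the other cargo, had 0, 1 and 0 counts, and Syt1, which works in the same release complex, had 0 in all 3. Hax1, an interleukin-1 alpha binding protein, was expressed at 40.9 ± 8.75 TPM.

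Receptors reported for extracellular S100 proteins were expressed in 9 of 12 cases, against 41.1% of protein-coding genes. Cd14 (200 ± 77.4 TPM), Sdc4 (179 ± 61.6) and Bsg (77.2 ± 10.1) were the highest, and Mcam was the lowest at 0.0167 ± 0.00577. Tlr4 stood at 24.19, 18.39 and 30.58 TPM. Ager, which encodes RAGE, stood at 0.08, 0.05 and 0.01 TPM from 7, 6 and 1 counts, so of the receptors most often named for calprotectin Tlr4 was well above Ager. Bsg, a receptor reported for S100A9, and Emb, one for S100A8 and S100A9, had 77.2 ± 10.1 and 12.3 ± 3.20 TPM. All 10 receptors tested passed the heterogeneity test, against 70.4% of all genes.

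**Figure D3:**
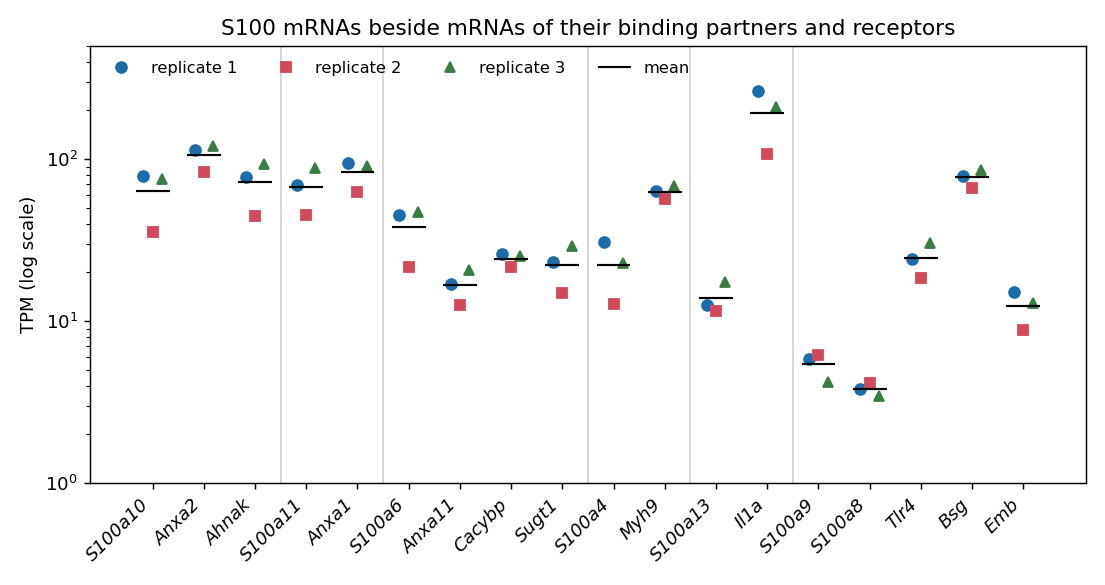
TPM on a log axis of 6 groups of S100 genes and the genes of their binding partners or receptors, separated by grey lines; points are single libraries and bars the mean of the 3. Anxa2 lies above S100a10 and Il1a far above S100a13 in every library, while Anxa11 lies below S100a6.

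Because S100a8 and S100a9 are neutrophil and monocyte genes, markers of those cells were set beside them. In bulk RNA, fewer cells of a type and less RNA per cell cannot be told apart. Of 14 other neutrophil markers, 3 were expressed, against 41.1% of protein-coding genes: Csf3r (33.4 ± 8.40 TPM), Lcn2 (14.8 ± 9.52) and the collagenase gene Mmp8 (2.11 ± 0.378). The defining genes Ly6g and Retnlg had 0 counts in all 3 libraries, Mpo had 6, 3 and 3 counts, Elane 0, 0 and 2, and Camp 8, 4 and 7. The summed level of the list was 125, 159 and 193 CPM, highest in replicate 3, where S100a8 and S100a9 were lowest. Csf3r alone gave 104, 134 and 155 CPM of it, so the sum mostly follows that gene and not the list as a whole.

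Single granule genes differed from that sum. Ngp, a neutrophil granule gene, had 33, 77 and 33 counts, or 0.648, 1.42 and 0.652 CPM. Mmp9, the gelatinase gene, had 26, 70 and 20 counts, and Ltf, the lactoferrin gene, had 10, 20 and 7. These 3 were highest in replicate 2, as S100a8 and S100a9 and 32.4% of all tested genes were, and were picked out after their values were seen. The heterogeneity test called 4 of the 7 list members tested, a share below the 70.4% of all genes, among them Ngp and Mmp9 but not Ltf (adjusted p = 0.0560). Mmp8 at 7.12, 6.93 and 7.17 CPM and Padi4 did not pass, and Csf3r and Lcn2 were highest in replicate 3. The part of other cells in the S100a8 and S100a9 values was not tested.

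**Figure D4:**
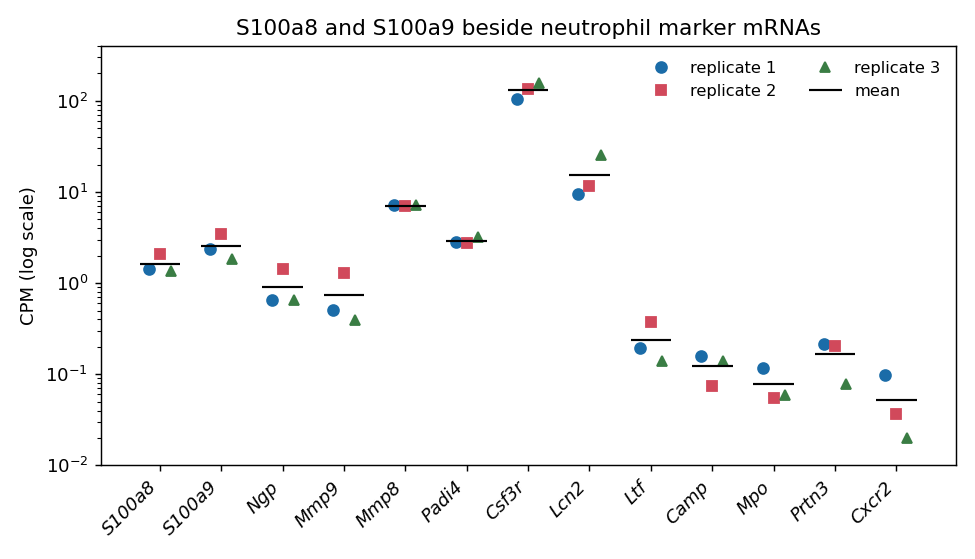
CPM on a log axis of S100a8, S100a9 and the 11 neutrophil markers with counts in all 3 libraries; points are single libraries and bars the mean. Ngp, Mmp9 and Ltf are highest in replicate 2 as S100a8 and S100a9 are, while Lcn2 and Csf3r are highest in replicate 3.

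Monocyte markers were present at modest levels. Ly6c2 stood at 10.42, 5.74 and 15.26 TPM, highest in replicate 3, and Chil3 at 2.94 ± 1.52 (SD, n = 3). Fn1 was the lowest, at 0.1. In CPM Ly6c2 and Chil3 were lowest in replicate 2, where S100a8 and S100a9 were highest. The list was divided: 3 of its 7 markers were lowest in replicate 2, against 29.2% of all tested genes. As many, 3, were lowest in replicate 3, as S100a8 and S100a9 were, against 32.6% of all tested genes. Fibroblast genes were measured because fibroblasts express S100a4. The 8 markers summed to 23, 53 and 11 counts, or 0.451, 0.980 and 0.217 CPM, highest in replicate 2, where S100a4 was lowest. Lymphocyte markers, also 8, summed to 11, 23 and 5 counts, again highest in replicate 2, as S100a8 and S100a9 were. The part of these cells in the S100 values was not tested.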

How the data were processed

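The authors deposited, per library, 1 gene-level and 2 transcript-level tables. Expected counts, estimates that need not be whole, were deposited by the authors without normalisation. TPM was deposited by the authors in each table and covers all indexed features, among them short RNAs. Notes deposited with the files name mm10 and GENCODE M21. The column layouts are those of RSEM and kallisto. Quantifier, aligner and strand setting: not given in the sources used here, so reads of overlapping antisense genes could not be told apart. For the members, the only annotated gene that overlaps any of them is Gm42674, on the same strand as S100a4.

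Members and lists were chosen with earlier results of these data known. The gene table holds 81881 entries, of which the 55536 Ensembl genes were used, and 122 of 123 listed genes matched. Counts were rounded and scaled with TMM (edgeR 4.0.16, R 4.3.3; DESeq2 1.42.0 as an alternative). Variation beyond counting error was assessed with a chi-square for Poisson heterogeneity, with 2 degrees of freedom, on every gene averaging 10 counts or more, with Benjamini-Hochberg adjustment at 0.05 over all of them. P-values measure only the spread between these 3 samples. Ordered levels were compared on log2(TPM + 1), where differences of low genes are understated, by exact sign-flip permutation. The posterior SD of a count, deposited in the gene table, was at most 1.04 counts for the members. The rule for naming genes took the members, their direct partners, the 3 highest genes and the lowest of each other list, overlapping genes and the 3 genes nearest to S100a11. Not every gene under this rule is named: the fibroblast, lymphocyte and dendritic cell lists give only their highest, and Sphk1 of the export list is left out. Other genes were named after their values were seen. 1 monocyte marker is not reported here. The tests were checked on simulated data. Figures were drawn with matplotlib 3.10.9.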

Additional observations from a re-analysis of the deposited data

How the results depend on the processing

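Leaving out 1 replicate at a time left 4 to 8 of the 8 members past the heterogeneity test: 4 without replicate 2, against 53.1% of all genes, and 8 without replicate 1 or replicate 3, against 53.5 and 50.7%. A mean count of at least 100 left 7, because S100a8 was not tested, with 77.6% of all genes called. All 8 passed with DESeq2 size factors, coding totals or no filter, where 70.2, 75.7 and 45.5% of genes were called. Leaving out a replicate, S100a1 minus S100a6 ran from -0.038 without replicate 2 to 0.10 log2(TPM + 1) without replicate 3, and in the second table it was 0.15, with 1 sign change in 35 alternatives of neighbour differences. Levels depend on the scale: rescaled to protein-coding genes, S100a11 stood at 207 TPM and S100a8 at 12.2, and the second table gave 195 and 11.7 so rescaled but 26.4 and 1.51 unscaled, where 7 of 8 members stayed at a TPM of 1 in every library. The direction in unscaled TPM and the rescaled second table were added after seeing the data. No paired analysis was possible because the labels give 1 group only. Depth limits S100a8 and S100a9 most, at 69 to 186 counts a library.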
